A study of Mus musculus with 4 samples.

Results

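The clustered histone genes were followed in mouse brain RNA from both reciprocal F1 hybrids and both parental strains. The members were all genes whose symbols in the deposited tables begin with Hist1h, Hist2h, Hist3h or Hist4h. This gave 70 genes with 76 transcripts, of 45215 genes in all, and 62 of the 70 members had a mean of at least 1 FPKM over the 4 libraries, as had 13768 genes in all. FPKM is a number of sequenced fragments corrected for the length of the transcript and for how many fragments the library held. The 8 members below that mean, with means of 0 to 0.673 FPKM, entered sums but no comparison. The groups were CAST/EiJ x C57BL/6 hybrids (F1r), C57BL/6 x CAST/EiJ hybrids (F1i), CAST/EiJ (CAST), an inbred strain derived from wild Mus musculus castaneus, and C57BL/6 (B6), a standard laboratory strain, all wild type. For each group the left hemispheres of 5 mice went into 1 pooled library, whereas the design text speaks of whole brain, and the labels give no age and do not say which parent was the dam. With 1 library per group there was no replicate spread, so no difference below carries an error or a p-value, and a member was counted as higher or lower only when it was at least 2-fold apart on log2(FPKM + 1), a scale that understates the change of low genes.

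Clustered histone genes encode the bulk of the histones that package newly copied DNA. H2A, H2B, H3 and H4 form the nucleosome core and H1 binds the DNA between cores. The genes are short, mostly lack introns, lie in groups on a few chromosomes and exist in many near-identical copies. Their mRNAs typically end in a conserved stem-loop in place of a poly(A) tail and are made mainly during S phase, while cells that have stopped dividing, such as neurons, draw on replacement variants encoded elsewhere in the genome. The sources used here do not say whether poly(A) RNA was selected for these libraries.

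The coding sequences of 5 H4 members are shown because 4 of them, Hist1h4m, Hist1h4i, Hist1h4k and Hist1h4b, were 2-fold apart between the strains, and the other, Hist1h4n, is the twin of Hist1h4m. They are given as bases 4 to 93 of the 312 coding bases, 5′ to 3′, from GENCODE M21 (GRCm38), with capitals at the 17 positions at which these 5 differ within the stretch. They differ at 25 positions over the whole coding sequence.
Hist1h4m: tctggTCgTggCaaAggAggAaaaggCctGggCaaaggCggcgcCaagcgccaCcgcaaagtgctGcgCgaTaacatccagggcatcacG
Hist1h4n: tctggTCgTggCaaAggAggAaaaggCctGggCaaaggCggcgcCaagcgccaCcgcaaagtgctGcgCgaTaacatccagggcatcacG
Hist1h4i: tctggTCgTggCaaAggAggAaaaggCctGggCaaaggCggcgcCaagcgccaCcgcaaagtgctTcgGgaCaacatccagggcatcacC
Hist1h4k: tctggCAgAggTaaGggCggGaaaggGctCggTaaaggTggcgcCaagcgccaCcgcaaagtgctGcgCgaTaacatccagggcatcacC
Hist1h4b: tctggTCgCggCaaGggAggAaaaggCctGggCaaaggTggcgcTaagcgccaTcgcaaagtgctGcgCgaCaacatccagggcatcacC

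Hist1h4m (chr13:21811746-21812147, plus strand) and Hist1h4n (chr13:21831767-21832196, minus strand) had the same coding sequence, with 0 differing bases of 312. Hist1h4i (chr13:22040636-22041362, minus strand) differed from both at 10 bases, which is 96.8% identity. Hist1h4k (chr13:21750194-21750505, minus strand) and Hist1h4b (chr13:23757013-23757409, plus strand) lie in the same cluster. Hist1h4i and Hist1h4k differed at 21 bases, which is 93.3% identity. Over all 78 pairs of the 13 H4 members the median coding identity was 93.9%. Hist4h4, the remaining H4 gene that was 2-fold apart, is not shown and was 85.3% to 87.2% identical to the others.

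The second set holds the H2a relatives. The stretch is bases 223 to 312 of the 393 coding bases of Hist2h2aa1, with capitals at the 3 positions at which the 4 sequences differ there.
Hist1h2al: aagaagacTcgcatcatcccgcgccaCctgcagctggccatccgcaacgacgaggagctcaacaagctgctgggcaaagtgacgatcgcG
Hist2h2aa1: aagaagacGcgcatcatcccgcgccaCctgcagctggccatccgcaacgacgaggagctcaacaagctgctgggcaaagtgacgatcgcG
Hist2h2aa2: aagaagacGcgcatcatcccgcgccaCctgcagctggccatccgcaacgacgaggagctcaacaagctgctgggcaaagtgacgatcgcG
Hist2h2ac: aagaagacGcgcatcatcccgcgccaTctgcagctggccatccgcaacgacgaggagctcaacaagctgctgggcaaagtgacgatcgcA

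Hist1h2al (chr13:51202727-51203065, minus strand) is annotated as a processed pseudogene and lies apart from the main chromosome 13 cluster. It differed from the protein-coding genes Hist2h2aa1 (chr3:96245497-96246082, plus strand) and Hist2h2aa2 (chr3:96239749-96240276, minus strand) at 2 of 339 aligned bases, and from Hist2h2ac (chr3:96220361-96220880, minus strand) at 6. Sequence sharing was measured as the percent of a gene's 31-base words that also occur in transcripts of other genes. All words of Hist2h2aa2 occur in Hist2h2aa1, and 89.6% of those of Hist2h2aa1 occur in Hist2h2aa2. The sources used here do not say how the authors treated fragments that match several genes, so the levels of single members of such sets are uncertain and are given beside the sums of their relatives.

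Summed over all 70 members, clustered histone RNA stood at 2129 FPKM in F1r, 2265 in F1i, 2057 in CAST and 2136 in B6. The highest sum was 1.10 times the lowest. The 13 H4 genes made up most of it, with 1489 FPKM in F1r, 1597 in F1i, 1444 in CAST and 1495 in B6. That is 69.9% of the members' FPKM in F1r, 70.5% in F1i, 70.2% in CAST and 70.0% in B6. On FPKM times transcript length, which follows the number of fragments, H4 still held 60.7% in F1r, 61.8% in F1i, 61.9% in CAST and 59.6% in B6.

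The 19 H2b genes summed to 254 FPKM in F1r, 265 in F1i, 236 in CAST and 274 in B6. The 20 H2a genes summed to 164 FPKM in F1r, 169 in F1i, 170.0 in CAST and 133 in B6. The 12 H3 genes summed to 134 FPKM in F1r, 142 in F1i, 129 in CAST and 144 in B6. CAST was lowest for H2b and H3, while B6 was lowest for H2a. The 6 H1 genes, which encode the linker histones, summed to 89.6 FPKM in F1r, 92.9 in F1i, 77.5 in CAST and 89.8 in B6. No type sum was 2-fold apart in any of the comparisons.

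Between CAST and B6 the log2 difference of the H2a sum was 0.35, and those of H1, H2b, H3 and H4 were -0.21, -0.21, -0.16 and -0.05. The last 4 turned positive when each library was rescaled to the same FPKM total, a scaling under which the median of all genes was 0.34, against 0.04 without it. Relative to that median they were again -0.21, -0.21, -0.15 and -0.05, and H4 was 0.08 on FPKM times length. The H2a difference was 0.11 over protein-coding members alone, since Hist1h2al made up part of it. By cluster, Hist1 on chromosome 13 held 1866 FPKM in F1r, 1981 in F1i, 1789.6 in CAST and 1899 in B6, and Hist2 on chromosome 3 held 141 in F1r, 154 in F1i, 132 in CAST and 139.9 in B6. Hist3 on chromosome 11 held 107 FPKM in F1r, 113 in F1i, 116 in CAST and 89.5 in B6.

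**Figure D1:**
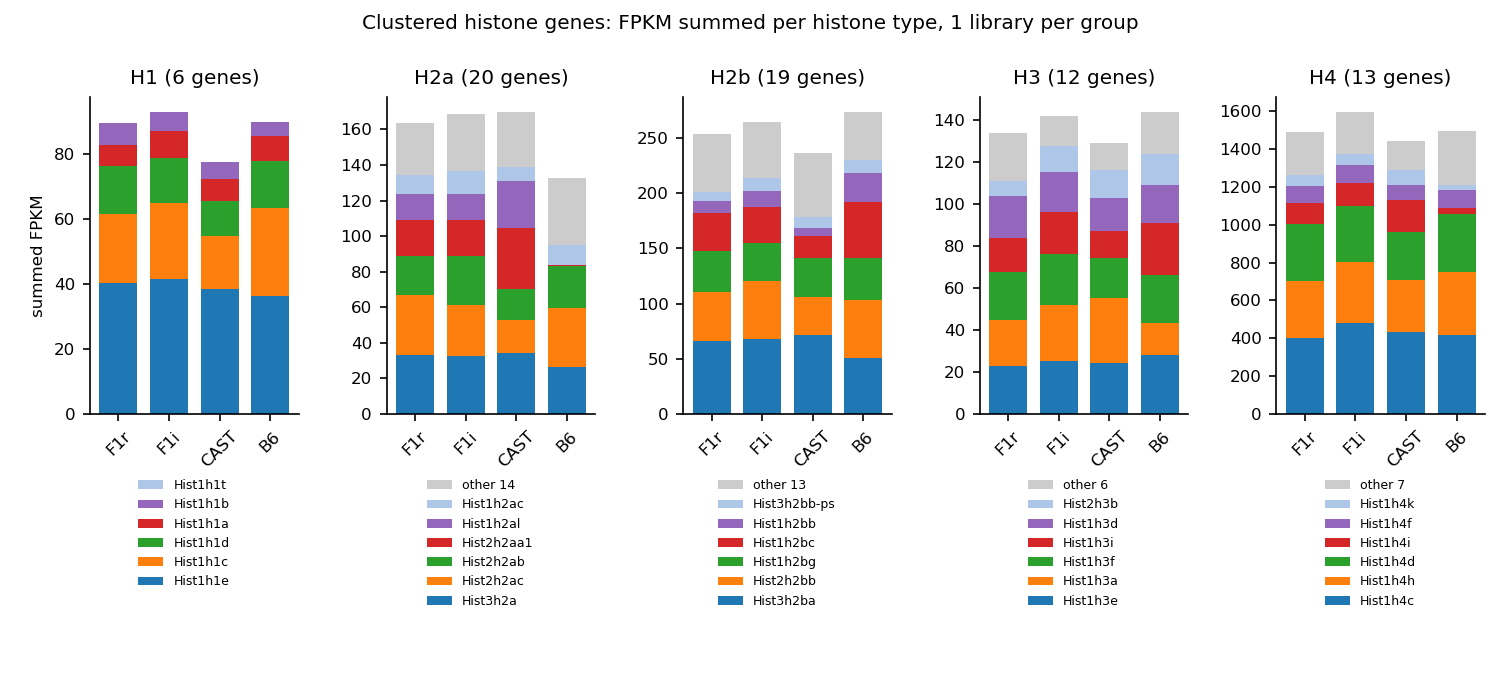
Stacked bars of summed FPKM for each histone type in F1r, F1i, CAST and B6, 1 library each, with the 6 highest members of a type in colour and the rest in grey; the vertical scale differs between types. Bar heights within a type differ by less than 2-fold, with H4 between 1444 and 1597 FPKM and H2a, the widest, between 133 and 170. Coloured segments such as Hist1h4i and Hist2h2aa1 differ more in size between CAST and B6.

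Beneath these similar sums, single genes differed. Between CAST and B6, 10 of the 62 members were at least 2-fold higher in CAST and 7 at least 2-fold lower. Over all 13768 genes compared, 2.85% were at least 2-fold higher in CAST and 2.27% at least 2-fold lower. Of the 10 members, Hist1h2bq and Hist1h2ah, with means of 1.06 and 1.42 FPKM, passed the mean of 1 FPKM only through CAST. After rescaling to the same FPKM total the members' counts were 12 higher and 4 lower. That scaling moved the median of all genes to 0.34, so the shares of all genes above do not apply to these counts. The shares of all genes under it are not given here. Without rescaling, the median log2 difference was -0.16 over the 62 members and 0.04 over all genes. By type, 5 of 13 H4, 6 of 17 H2b, 4 of 15 H2a, 2 of 12 H3 and 0 of 5 H1 members were 2-fold apart.

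The 3 most abundant H4 genes, and the most abundant members of all, differed little. Hist1h4c had 401 FPKM in F1r, 480.2 in F1i, 435 in CAST and 418 in B6, a log2 difference of 0.06 for CAST minus B6. Hist1h4h had 303 FPKM in F1r, 321 in F1i, 271 in CAST and 334 in B6. Hist1h4d had 299.6 FPKM in F1r, 298 in F1i, 258 in CAST and 306 in B6. Both were lowest in CAST, by less than 2-fold. These 3 genes held 67.4% of H4 FPKM in F1r, 68.8% in F1i, 66.8% in CAST and 70.7% in B6.

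The 5 H4 genes that were 2-fold apart were all less abundant than these. Hist1h4m had 43.9 FPKM in F1r, 43.8 in F1i, 8.32 in CAST and 84.1 in B6, 10.1-fold lower in CAST, a log2 difference of -3.19. Its identical twin in coding sequence, Hist1h4n, had 59.6 FPKM in F1r, 53.8 in F1i, 36.7 in CAST and 68.3 in B6, a log2 difference of -0.88. In both genes CAST was lowest and B6 highest. The pair summed to 103.5 FPKM in F1r, 97.7 in F1i, 45.1 in CAST and 152 in B6, so that the log2 difference of the sum was -1.74.

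Hist1h4i went the other way, with 110.0 FPKM in F1r, 119.5 in F1i, 165 in CAST and 29.2 in B6, 5.66-fold higher in CAST and a log2 difference of 2.46. Its deposited transcript of 727 bases reaches beyond the coding sequence, and 35.6% of its words were shared with other genes. Hist1h4k, whose deposited transcript of 312 bases is coding sequence alone, had 59.2 FPKM in F1r, 59.5 in F1i, 79.6 in CAST and 27.0 in B6, a log2 difference of 1.53. Hist1h4b had 39.9 FPKM in F1r, 39.9 in F1i, 26.4 in CAST and 54.4 in B6, a log2 difference of -1.02, just past the 2-fold limit. Hist1h4m, Hist1h4n, Hist1h4i, Hist1h4k and Hist1h4b together summed to 313 FPKM in F1r, 317 in F1i, 316 in CAST and 263 in B6, a log2 difference of 0.26 on FPKM and of 0.60 on FPKM times length.

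Hist4h4, the only member on chromosome 6 (chr6:136801553-136804415, minus strand), stood apart in sequence, with 14.3% of its words shared. It had 14.96 FPKM in F1r, 17.8 in F1i, 19.1 in CAST and 7.67 in B6, 2.49-fold higher in CAST and a log2 difference of 1.21. The remaining H4 genes Hist1h4a, Hist1h4f, Hist1h4j and Hist2h4 were within 2-fold, with log2 differences between -0.45 and -0.02.

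Among H2a genes, the relatives printed above held the greatest differences. Hist2h2aa1 had 19.8 FPKM in F1r, 20.1 in F1i, 34.6 in CAST and 0.673 in B6, a log2 difference of 4.41. Hist1h2al had 14.99 FPKM in F1r, 15.1 in F1i and 25.9 in CAST and was listed at 0 in B6, so no fold is given. Hist2h2aa2 stayed between 0.523 and 0.751 FPKM in all libraries. Hist2h2ac moved against its relatives without reaching 2-fold, with 33.7 FPKM in F1r, 28.3 in F1i, 18.3 in CAST and 32.95 in B6, a log2 difference of -0.82. Hist1h2al, Hist2h2aa1 and Hist2h2aa2, the near-identical ones, together had 35.5 FPKM in F1r, 35.8 in F1i, 61.1 in CAST and 1.27 in B6, a log2 difference of 4.78. With Hist2h2ac added, the 4 relatives had 69.2 FPKM in F1r, 64.1 in F1i, 79.3 in CAST and 34.2 in B6, a log2 difference of 1.19. The annotated genes Gm20632, Gm20633 and Gm20634 overlap Hist2h2aa1 or Hist2h2aa2 and were at most 1.29 FPKM in any library, but they are several times longer, and Gm20633 holds all words of Hist2h2aa1. On FPKM times length in kilobases, the 3 near-identical H2a genes summed to 17.1 in F1r, 17.2 in F1i, 29.3 in CAST and 0.708 in B6, a log2 difference of 4.15. With the 3 overlapping genes added the sums were 24.6 in F1r, 22.1 in F1i, 32.9 in CAST and 8.26 in B6, a log2 difference of 1.87. In each of these sums the strain difference of this group was above 2-fold, but its size depends on which genes are counted. Hist2h2ac, which was lower in CAST, was not added together with the 3 overlapping genes. Whether the difference of such a sum would pass 2-fold is not given here.

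The other abundant H2a genes differed less. Hist3h2a, the chromosome 11 member, had 33.2 FPKM in F1r, 32.8 in F1i, 34.5 in CAST and 26.4 in B6. It overlaps Trim17 on the same strand, which was at 0.77 FPKM in F1r, 0.82 in F1i, 0.42 in CAST and 1.04 in B6. Hist2h2ab had 22.1 FPKM in F1r, 27.7 in F1i, 17.4 in CAST and 23.898 in B6. Among H2a genes of the main cluster, Hist1h2ak had 5.06 FPKM in F1r, 4.84 in F1i, 0.178 in CAST and 9.56 in B6, a log2 difference of -3.16, and Hist1h2ah had 1.40 FPKM in F1r, 1.06 in F1i, 3.10 in CAST and 0.120 in B6, a log2 difference of 1.87. The 13 main-cluster H2a genes that are linked by at least 50% shared words summed to 39.0 FPKM in F1r, 44.0 in F1i, 38.7 in CAST and 48.3 in B6, a log2 difference of -0.31.

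Among H2b genes, the 3 highest were within 2-fold. Hist3h2ba had 66.0 FPKM in F1r, 68.3 in F1i, 71.2 in CAST and 51.1 in B6. Hist2h2bb had 44.9 FPKM in F1r, 52.4 in F1i, 35.2 in CAST and 52.1 in B6, and it overlaps Gm42743 on the same strand, which was between 4.12 and 5.45 FPKM. Hist1h2bg had 36.8 FPKM in F1r, 34.3 in F1i, 35.0 in CAST and 38.2 in B6.

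Below these, 2 H2b genes were lower in CAST and 4 were higher. Hist1h2bc had 34.8 FPKM in F1r, 32.6 in F1i, 20.2 in CAST and 50.6 in B6, a log2 difference of -1.28. Hist1h2bb had 10.4 FPKM in F1r, 14.5 in F1i, 6.87 in CAST and 25.8 in B6, a log2 difference of -1.77. Both hybrids lay between the parents in each. Of the higher ones, Hist1h2bl had 6.85 FPKM in F1r, 5.97 in F1i, 8.34 in CAST and 0.984 in B6. Hist1h2bh had 5.02 FPKM in F1r, 4.48 in F1i, 6.47 in CAST and 1.45 in B6. Both were lowest in B6, as were the other two. Hist1h2bp had 3.46 FPKM in F1r, 3.65 in F1i, 4.15 in CAST and 0.931 in B6. Hist1h2bq had 1.01 FPKM in F1r, 0.999 in F1i, 2.19 in CAST and 0.0446 in B6. The log2 differences of these 4 lay between 1.41 and 2.24, but their levels were low and the 6 genes together were lower in CAST, with 61.5 FPKM in F1r, 62.2 in F1i, 48.2 in CAST and 79.9 in B6, a log2 difference of -0.72.

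H2b also holds members known for restricted use. Hist2h2be, which encodes an H2B variant described in mouse olfactory neurons, was detected at a low and even level, with 2.99 FPKM in F1r, 2.97 in F1i, 3.38 in CAST and 3.92 in B6. The testis genes were near 0. Hist1h2ba was at or below 0.252 FPKM in every library, Hist1h2aa was listed at 0 in all 4, and the testis linker histone Hist1h1t reached at most 0.217 FPKM.

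Among H3 genes, the 3 highest were Hist1h3e, Hist1h3a and Hist1h3f. Hist1h3e had 22.7 FPKM in F1r, 25.1 in F1i, 24.3 in CAST and 28.02 in B6. Hist1h3a had 22.1 FPKM in F1r, 27.0 in F1i, 30.8 in CAST and 15.1 in B6, a log2 difference of 0.98, just short of the 2-fold limit. Hist1h3f had 22.8 FPKM in F1r, 24.1 in F1i, 18.9 in CAST and 23.0 in B6. The remaining uncalled members of all types lay between -0.91 and this value. Only Hist1h3h and Hist1h3c passed the limit among H3 genes. Hist1h3h had 8.25 FPKM in F1r, 5.06 in F1i, 2.37 in CAST and 9.40 in B6, a log2 difference of -1.63. Hist1h3c had 1.68 FPKM in F1r, 1.60 in F1i, 1.11 in CAST and 3.43 in B6, a log2 difference of -1.07. The 9 main-cluster H3 genes together had 124 FPKM in F1r, 127 in F1i, 112 in CAST and 126 in B6.

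Of the 5 compared H1 genes 0 were 2-fold apart, which is near the background of 2.85% of all genes higher and 2.27% lower in CAST. The H1 genes had the lowest median share of shared words of any type. Hist1h1e had 40.4 FPKM in F1r, 41.5 in F1i, 38.5 in CAST and 36.3 in B6. Hist1h1c had 21.3 FPKM in F1r, 23.2 in F1i, 16.2 in CAST and 27.0 in B6, a log2 difference of -0.71. Hist1h1d had 14.8 FPKM in F1r, 13.9 in F1i, 10.9 in CAST and 14.6 in B6. Hist1h1a and Hist1h1b averaged 7.16 and 5.58 FPKM over the 4 libraries, and their log2 differences were -0.18 and 0.22. The shared share of words was at most 30.95% in the 6 H1 genes, against a median of 72.0% over all members.

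**Figure D2:**
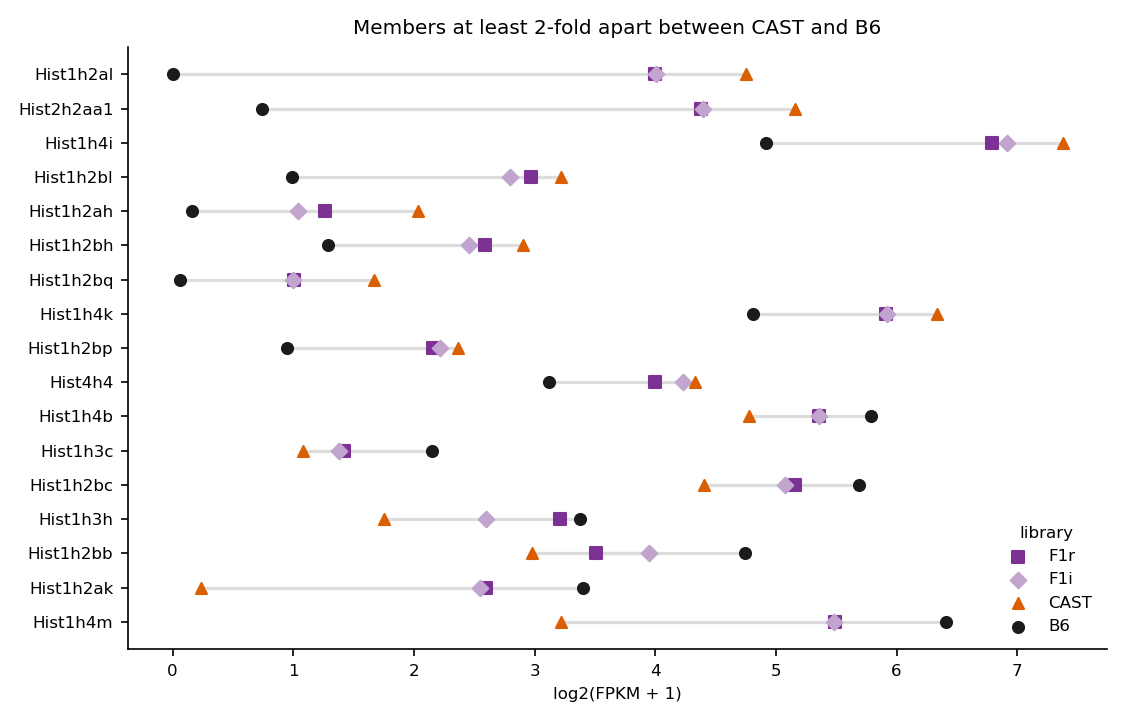
Log2(FPKM + 1) of the 17 members at least 2-fold apart between CAST and B6, 1 row per gene, with squares for F1r, diamonds for F1i, triangles for CAST and circles for B6, 1 library each. In all 17 rows both F1 marks lie between the CAST and B6 marks, and for 10 genes the CAST mark is the higher of the parents.

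Most of the 62 compared members had close relatives, and so had most of the 17 that differed. Over all genes, 2.85% were at least 2-fold higher and 2.27% lower in CAST. Of the 44 compared members with at least 50% of their 31-base words in transcripts of other genes, 14 were 2-fold apart (31.8%), and of the 18 with less, 3 were (16.7%), namely Hist4h4, Hist1h4i and Hist1h2bc. By shared words, these were 1 of 7 members below 25%, 2 of 11 between 25% and 50%, 4 of 18 between 50% and 75%, and 10 of 26 above 75%. The share was alike above and below a mean level of 10 FPKM, with 9 of 33 and 8 of 29 members.

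**Figure D3:**
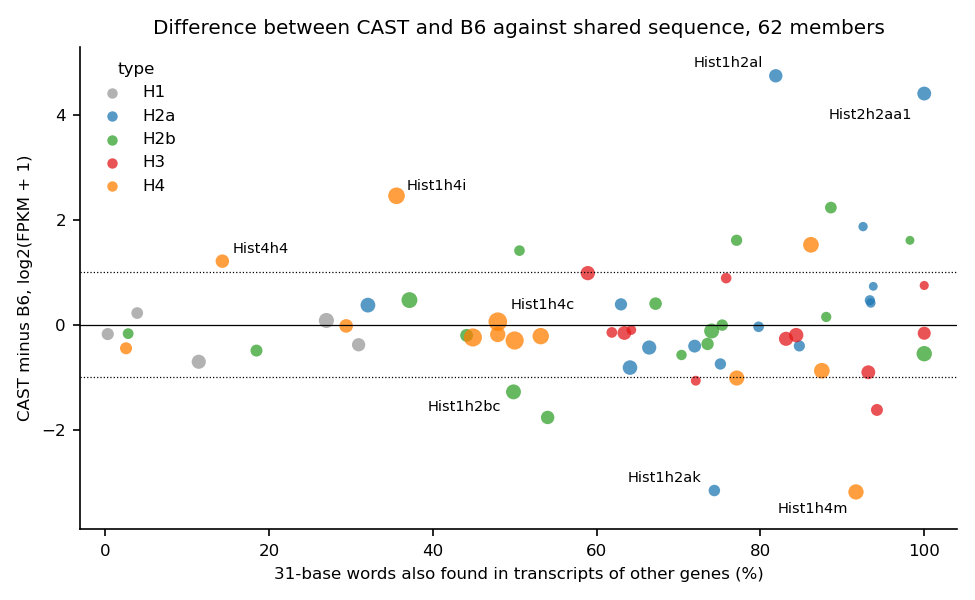
Log2 difference of FPKM + 1, CAST minus B6, of the 62 compared members against the percent of their 31-base words that also occur in transcripts of other genes; colour gives the histone type, mark size grows with mean level, and dotted lines mark 2-fold. Of the 26 members with more than 75% shared words 10 lie outside the dotted lines, and of the 18 with less than 50%, 3 do. Hist1h2al is drawn against a B6 value listed at 0.

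Fewer differences were left when all relatives linked at 50% were summed, but not with a stricter link. Members were joined into families where at least 50% of the words of either gene occurred in the other, a step added after the data were seen. The 70 members then formed 25 families, 18 of them single genes, and 22 had a mean of at least 1 FPKM. Of these 22, 2 were at least 2-fold higher in CAST and 1 at least 2-fold lower, against 10 and 7 of 62 single members. Over all genes, taken singly, 2.85% were higher and 2.27% lower. The higher ones were Hist4h4 and the family of Hist1h2al, Hist2h2aa1, Hist2h2aa2 and Hist2h2ac, and the lower one was Hist1h4m with Hist1h4n. Hist1h4k, in another family, shared 49.6% of its words with Hist1h4m, just under the link. The lower count therefore depends on where the link was set. The H4 family that holds Hist1h4c, Hist1h4h, Hist1h4i, Hist1h4k, Hist1h4a, Hist1h4b and Hist1h4j summed to 972 FPKM in F1r, 1082 in F1i, 1036 in CAST and 928 in B6, a log2 difference of 0.16. The 14 main-cluster H2b genes summed to 131 FPKM in F1r, 129 in F1i, 116 in CAST and 154 in B6, a log2 difference of -0.41. The first of these is dominated by Hist1h4c and Hist1h4h, so that the difference of Hist1h4i weighs little in its sum. With a stricter link of 75%, 7 of 47 families were higher and 6 lower, a share close to that of single members. Which part of the single-gene differences came from the assignment of shared fragments was not tested.

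**Figure D4:**
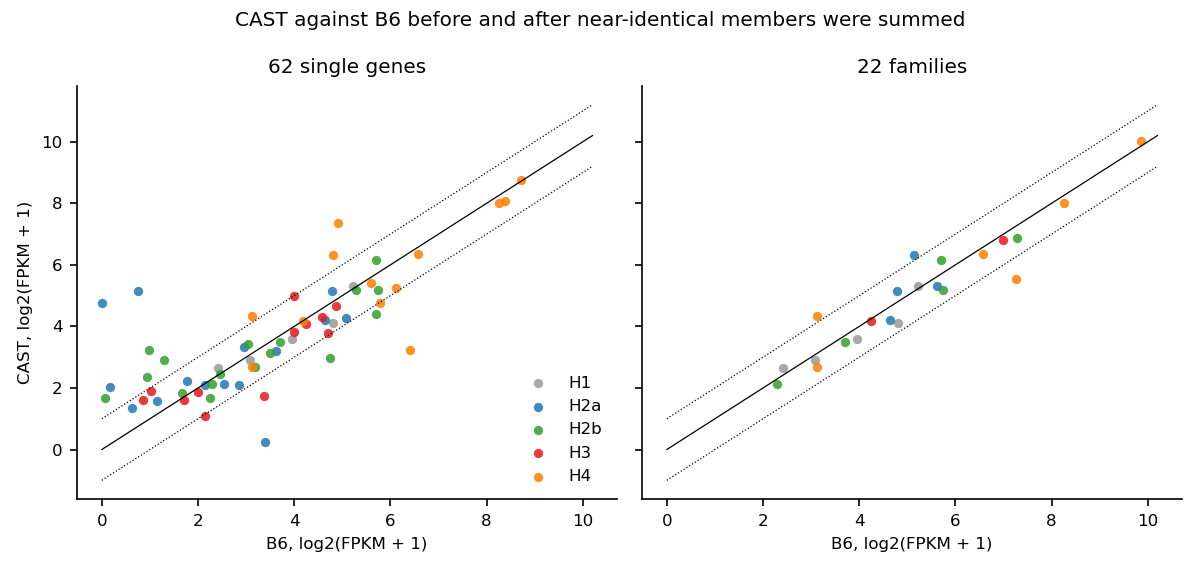
CAST against B6 on log2(FPKM + 1) for the 62 compared members as single genes (left) and for the 22 families of members linked by at least 50% shared words (right), 1 library per strain; the solid line marks equality and dotted lines 2-fold. On the left 17 marks lie outside the dotted lines, on the right 3.

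By position, the main cluster falls into 3 stretches of chromosome 13. The 5 members at chr13:22035164-22043676 differed most, with 128 FPKM in F1r, 138 in F1i, 186 in CAST and 44.4 in B6, most of it Hist1h4i. The 19 members at chr13:21715763-21837530 had 236 FPKM in F1r, 229 in F1i, 190.03 in CAST and 259 in B6, with 4 of 16 compared members higher and 3 lower. The 31 members at chr13:23531050-23934851 had 1488 FPKM in F1r, 1598 in F1i, 1388 in CAST and 1595 in B6, with 1 of 27 higher and 4 lower. Over all genes 2.85% were at least 2-fold higher in CAST and 2.27% lower, so 1 of 27 higher is near the background. Higher and lower members lay close together at chr13:21715763-21837530. At chr13:23531050-23934851 they lay apart, as the only higher member, Hist1h2bh, starts at 23542970 and the first lower one, Hist1h2bc, at 23684199.

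Both hybrids lay between the parents in the 17 members that were 2-fold apart between CAST and B6. This did not hold for all sums, as F1i, with 2265 FPKM over all members, was above CAST (2057) and B6 (2136). The position of a hybrid was taken as its distance from B6 in FPKM over the distance of CAST from B6, so that 0 is the B6 level and 1 the CAST level. All 17 differing members lay between 0 and 1 in both hybrids, with a median position of 0.58 in F1r and 0.60 in F1i. Among all 705 genes 2-fold apart, 93.3% lay between the parents in F1r and 94.9% in F1i, with medians of 0.49 and 0.51. Hist1h4m stood at 0.53 in F1r and 0.53 in F1i, Hist1h4i at 0.60 and 0.67, Hist2h2aa1 at 0.56 and 0.57, and Hist1h2ak at 0.48 and 0.50. The widest gap between hybrids among the 17 was in Hist1h3h, at 0.16 in F1r and 0.62 in F1i.

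The reciprocal hybrids differed from each other far less than the strains did, among the members as over all genes. No member was 2-fold apart between F1r and F1i, which is near the background of 0.24% of all genes higher and 0.269% lower in F1r. The median log2 difference of F1r minus F1i was -0.02 over the members and 0.03 over all genes, whose standard deviation was 0.28. The extremes were Hist1h3b, with 4.93 FPKM in F1r and 2.23 in F1i, a log2 difference of 0.88, and Hist2h3b, with 7.20 FPKM in F1r and 12.3 in F1i, a log2 difference of -0.70. All 5 type sums were slightly lower in F1r, by log2 differences between -0.10 and -0.04, and all 5 turned positive after rescaling to the same FPKM total, which gave a median of all genes of 0.27. Relative to that median they stayed between -0.10 and -0.04.

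Hybrids were also set against parents by mean log2 values, a comparison that uses the same libraries as the others. 2 members, Hist1h2al and Hist2h2aa1, were counted at least 2-fold higher in the hybrids and 0 lower, at a background of 0.298% higher and 0.0944% lower. Their hybrid values nevertheless lay between those of the parents, since a mean of log2 values falls below the log2 of the mean when 1 parent is near 0. The type sums of hybrids and parents differed by log2 values between 0.02 and 0.14.

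Most H2a and H2b members sit head to head, with starts facing away from each other across a short shared upstream stretch. There were 14 such pairs within 500 bases, with gaps of 172 to 305 bases between the deposited transcripts, and the H2b gene had the higher mean level in 10. In the 10 pairs with both genes compared, no pair had both genes 2-fold apart and 4 had 1 of them apart, and the direction was the same in 5. The stretches between the RefSeq starts (GRCm38.p6) of 2 of those 4 pairs are printed on the plus strand, 5′ to 3′, because in each the H2a gene differed between strains and its partner did not. Capitals mark CCAAT and ATTTGCAT, the octamer bound by Pou2f1, on either strand. The stretch of Hist1h2ak and Hist1h2bn is chr13:21753913-21754075 and that of Hist1h2ah and Hist1h2bk is chr13:22035644-22035820.
Hist1h2ak and Hist1h2bn: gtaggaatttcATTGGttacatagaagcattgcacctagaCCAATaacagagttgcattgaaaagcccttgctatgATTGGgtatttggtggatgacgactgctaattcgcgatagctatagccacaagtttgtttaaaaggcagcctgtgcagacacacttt
Hist1h2ah and Hist1h2bk: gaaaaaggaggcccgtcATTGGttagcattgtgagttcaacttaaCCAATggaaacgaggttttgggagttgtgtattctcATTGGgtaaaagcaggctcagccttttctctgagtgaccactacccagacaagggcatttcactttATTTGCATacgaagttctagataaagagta

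Hist1h2bn had 2.38 FPKM in F1r, 2.74 in F1i, 2.54 in CAST and 2.19 in B6, beside the Hist1h2ak values of 0.178 in CAST and 9.56 in B6 given above. Hist1h2bk had 4.76 FPKM in F1r, 5.57 in F1i, 4.47 in CAST and 4.49 in B6, beside 3.10 in CAST and 0.120 in B6 for Hist1h2ah. Hist1h2ah is a low gene that entered the comparison only through its CAST value. Both stretches hold 3 CCAAT matches, and the second holds 1 octamer. The RefSeq sequence is that of a B6 reference genome.

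Of the members, 62 had a RefSeq promoter, taken as 250 bases before to 50 after the start. CCAAT, on either strand, was in all promoters of the 6 H1, 18 H2a, 16 H2b and 10 H3 genes found, but in 3 of 12 of H4 genes, against 37.4% of all 32851 promoters. TATAAA was in 35 of 62, against 13.6% of all. The octamer ATTTGCAT was in 7 of 18 H2a and 7 of 16 H2b promoters and in 0 of the H1, H3 and H4 promoters, against 1.74% of all. Promoter windows of head-to-head partners overlap, so the same match can be counted for an H2a and an H2b gene. The octamer of Hist1h2ah and Hist1h2bk is such a case. The H2a and H2b counts are therefore not independent of each other. A match describes the letters only.

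The stem-loop that ends these mRNAs, and is bound by the protein encoded by Slbp, was searched as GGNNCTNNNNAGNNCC on the transcript strand in the 100 bases after the stop codon. It was found in 46 members, and in 44 of the 48 with at least 60 annotated bases there, against 0.321% of 47351 other coding transcripts. It began 21 to 58 bases after the stop codon, and all 6 stem positions paired in all 46. The 5 forms found in more than 1 member follow, with the stem in capitals, since they separate H4 from the other types.
26 members of the H1, H2a, H2b and H3 types: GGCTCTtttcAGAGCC
7 H4 members: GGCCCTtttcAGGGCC
6 members of the H1, H2b and H3 types: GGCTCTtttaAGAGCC
Hist1h4i and Hist2h4: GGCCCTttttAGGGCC
Hist1h4b and Hist1h4j: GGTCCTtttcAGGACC

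All 12 H4 members with the motif carried GGCCCT or GGTCCT as the first strand of the stem, and all 34 members of other types carried GGCTCT. Hist1h4m and Hist1h4n share the form of Hist1h4c, Hist1h4h and Hist1h4d, while Hist1h4i has the form of Hist2h4. The loop lay inside the deposited transcript in 43 members, whose median level was 14.9 FPKM. The 24 members with none found had a median of 5.22 FPKM, but most of these had fewer than 60 annotated bases after the stop codon to search. Types were also uneven, as 12 of the 13 H4 members were among those found. These medians therefore do not compare genes with and without a loop.

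Most members had a single transcript, and 5 had more. Hist1h2be is the most divided, with 3 transcripts of 2099, 2408 and 2433 bases. The 2408-base transcript had 1.98 FPKM in F1r, 2.35 in F1i, 1.49 in CAST and 5.25 in B6, and the 2433-base transcript had 2.58 in F1r, 2.52 in F1i, 2.60 in CAST and 1.33 in B6, and the sums of all 3 differed by less than 2-fold. In Hist2h3c1, the 1820-base transcript had 1.15 FPKM in F1r, 0.000991 in F1i, 2.01 in CAST and 0.000302 in B6, while the 1825-base transcript had 0.0241 in F1r, 0.837 in F1i, 0.0303 in CAST and 0.809 in B6. These transcripts differ by 5 bases in length, and their levels alternated between libraries.

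The replacement variants, which are not limited to S phase, were set beside the clustered genes of their type. H3f3a and H3f3b, which encode H3.3, summed to 193 FPKM in F1r, 207 in F1i, 194 in CAST and 203 in B6. That was 1.44 times the sum of clustered H3 genes in F1r, 1.46 in F1i, 1.51 in CAST and 1.41 in B6. The H2A variants H2afz, H2afv, H2afx, H2afy, H2afy2 and H2afj summed to 157 FPKM in F1r, 169 in F1i, 165 in CAST and 171 in B6, which was 0.958 times clustered H2a in F1r, 1.002 in F1i, 0.973 in CAST and 1.29 in B6. The linker variants H1f0 and H1fx summed to 34.9 FPKM in F1r, 38.3 in F1i, 32.9 in CAST and 40.7 in B6, and were below clustered H1 in all libraries. Of the 12 replacement genes 11 were compared, and 0 were 2-fold apart in any comparison. Between CAST and B6 2.85% of all genes were higher and 2.27% lower, so a count of 0 in a list of this size is near the background, here and in the lists that follow. The CAST minus B6 differences of the replacement genes lay between -0.30 and 0.14, with a median of -0.12, against 0.04 over all genes.

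**Figure D5:**
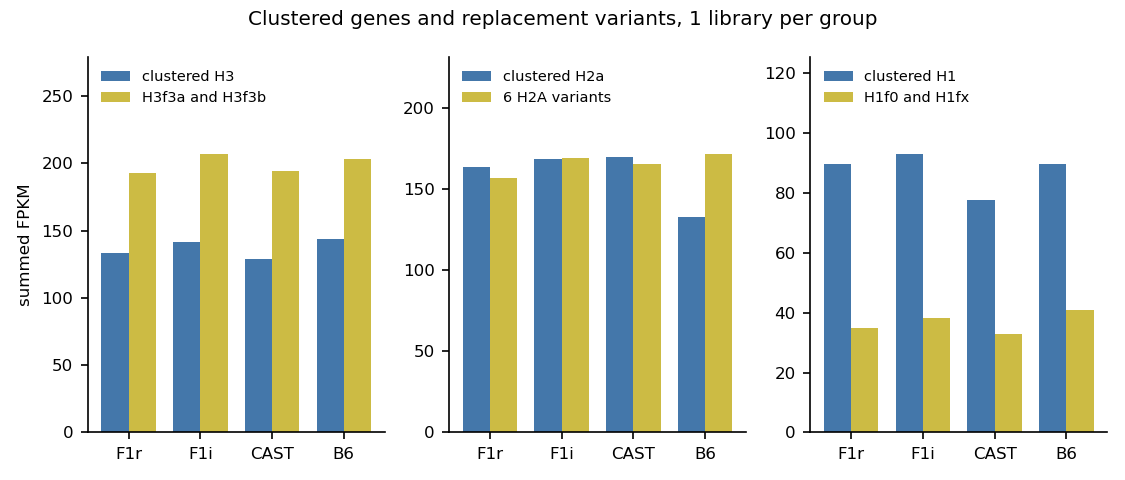
Summed FPKM of clustered genes (blue) and of replacement variants (yellow) for H3, H2A and H1 in F1r, F1i, CAST and B6, 1 library per group; vertical scales differ and start at 0. The H3.3 genes exceed clustered H3 in all 4 libraries, the H2A variants exceed clustered H2a clearly in B6 alone, and the linker variants stay below clustered H1.

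Factors that make and process histone mRNA showed no 2-fold difference. Of the 19 listed, 18 were in the tables and 17 were compared, and 0 were 2-fold apart in any comparison, with a median CAST minus B6 difference of 0.17, above the 0.04 of all genes, and a range of -0.29 to 0.49. Cstf3, a subunit of a cleavage factor, was the highest of these. Slbp had 9.22 FPKM in F1r, 8.83 in F1i, 10.02 in CAST and 10.5 in B6. Npat, the activator of histone transcription, had 4.88 FPKM in F1r, 4.64 in F1i, 5.70 in CAST and 4.70 in B6. Lsm11, a subunit of the small nuclear particle that guides cleavage of the transcripts, had 6.65 FPKM in F1r, 6.99 in F1i, 7.29 in CAST and 5.56 in B6. Pou2f1 had 3.47 FPKM in F1r, 3.02 in F1i, 3.97 in CAST and 3.38 in B6. Of 20 histone chaperones 17 were compared and 0 were 2-fold apart, with a median of 0.14 and a range of -0.62 to 0.53. The lowest was Hjurp, which places the centromeric H3 variant, with 10.1 FPKM in F1r, 8.84 in F1i, 7.14 in CAST and 11.5 in B6. Atrx, which helps place H3.3, had 52.6 FPKM in F1r, 42.5 in F1i, 54.5 in CAST and 39.9 in B6, and Nasp, which binds free H3 and H4, had 7.62 FPKM in F1r, 7.31 in F1i, 9.49 in CAST and 6.24 in B6. Chaf1a, Chaf1b and Asf1b, which act with new DNA, were each below 1 FPKM in every library.

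Genes of S phase and cell division were counted likewise. Of 23 listed, 13 were compared, and only Gmnn, which restrains DNA replication, was 2-fold apart, with 1.349 FPKM in F1r, 2.11 in F1i, 0.654 in CAST and 2.35 in B6, a log2 difference of -1.02. The median of the list was -0.13. Pcna, a clamp used in replication and repair, had 16.7 FPKM in F1r, 17.8 in F1i, 14.3 in CAST and 21.9 in B6. Mki67, a marker of dividing cells, was at 0.109 FPKM in F1r, 0.0826 in F1i, 0.131 in CAST and 0.117 in B6, and Top2a was at most 0.509 FPKM. Neural progenitor and neuroblast markers were compared for 8 of 11 genes, with 0 of them 2-fold apart and a median of 0.14.

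Neuronal markers, which fit the tissue label, were all present, with sums of 1701 FPKM in F1r, 1623 in F1i, 1527 in CAST and 1641 in B6 and 0 of the 7 apart by 2-fold. All 7 oligodendrocyte markers were lower in CAST than in B6, by log2 differences of -1.45 to -0.49, with Mobp and Cldn11 past 2-fold and sums of 1605 FPKM in F1r, 1759.9 in F1i, 1281 in CAST and 2107 in B6. All 6 astrocyte and all 6 microglia markers were within 2-fold, with medians of 0.02 and -0.38. Of 9 red blood cell and other non-brain markers 6 were compared, and Hba-a2, Hbb-bt and Acta1 were at least 2-fold lower in CAST. Hba-a2 had 18.2 FPKM in F1r, 37.2 in F1i, 0.103 in CAST and 66.5 in B6. It was also counted as higher in hybrids than in parents, by 1.65 on mean log2 values, although both hybrids lay between the parents. Hba-a1 went the other way, with 88.7 FPKM in F1r, 143 in F1i, 137 in CAST and 107 in B6, a log2 difference of 0.35. How fragments were divided between Hba-a1 and Hba-a2 was not tested, so the level of either gene alone is uncertain. The part of these shifts in the histone sums was not tested, and in a bulk sample fewer cells of a type and less RNA per cell cannot be told apart. Relative to B6, the estimated depth was 0.747 in F1r, 0.828 in F1i and 0.731 in CAST.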

How the data were processed

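Brain RNA of 4 groups was analysed, with 1 pooled library per group. The deposited values are FPKM estimates for single transcripts, made by the authors. The submitters' notes name mm9 as the build. Per the submitters' processing notes, the tools were HISAT2, Trimmomatic 0.36, bcl2fastq 2.20, Cufflinks 2.2.1 and Cuffdiff. The loci in the deposited tables are nevertheless those of GRCm38, as 127971 of 128603 transcripts occur in GENCODE M21 and 97.2% of these have the same start and end. Per the labels' protocols the library kit was strand-specific. Not given in the sources used here: counting by strand, the treatment of fragments with several matches and any use of a CAST genome. FPKM of transcripts as short as these depends strongly on the length correction.

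Transcripts of at least 200 bases were summed per gene, and genes with a mean of at least 1 FPKM were compared on log2(FPKM + 1). No test was possible. A gene 2-fold apart was counted, and counts and medians are read against those of all genes. Shared sequence is the percent of a member's 31-base words found, on either strand, in transcripts of other genes in GENCODE M21. All 76 member transcripts were placed there by gene name and locus. Relative depth was estimated from low values of long transcripts that sit at the worth of 1 fragment, 0.0239 FPKM times kilobases in B6 and 0.0327 in CAST. No interval or floor is given, since the files hold no counts and this worth is only an estimate.

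Full values are given for members 2-fold apart between CAST and B6 and for the 3 highest of each type, and for listed genes that are 2-fold apart or, at most 4 per list, high; Hist1h4n, Hist2h2ac and some other relatives, the paired H2b genes, and the list members with known roles in histone supply were chosen for naming once their values had been seen. Members, lists and comparisons were chosen with earlier results of these data known. Summing per gene, the 2-fold count and the hybrid position were tested on simulated data. Fragments shared between near-identical genes were not simulated. Python 3.11.15, numpy 2.4.6, pandas 2.3.3 and matplotlib 3.10.9 were used. Alternatives were other pseudocounts, filters, scalings and transcript sums.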

Additional observations from a re-analysis of the deposited data

How the results depend on the processing

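With 1 library per group no replicate could be left out. No paired analysis was possible because each group has 1 library, and the groups share only 1 replicate number. For CAST minus B6, main counts of 10 higher and 7 lower became 6 higher at a mean of at least 5 FPKM and 4 lower after rescaling to the same FPKM total. Under that rescaling the median of all genes was 0.34, against 0.04 without it. That rescaling also gave type sum differences of 0.13 for H1, 0.69 for H2a, 0.13 for H2b, 0.19 for H3 and 0.29 for H4, and 1 member higher in F1r than in F1i. A pseudocount of 0.1 gave 2 members higher in F1r than in F1i and 5 higher in hybrids than in parents. Hybrids against parents gave 1 higher for protein-coding members alone, for FPKM times length and for families of at least 75% shared words. Settings added after the data were seen gave 2 higher and 1 lower in CAST and 0 higher in hybrids, both for members with under 50% shared words and for families of at least 50%. The cause of these shifts was not tested, except that fewer members enter some counts. Other counts stayed within 1.5 times the main count, and other type sums moved by less than 0.28, the standard deviation of F1r minus F1i over all genes. Of the 17 members 2-fold apart, Hist1h2bc, Hist1h3c and Hist1h4b after rescaling and Hist1h2bp and Hist1h4b on FPKM times length fell under 2-fold, and none changed direction.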
